A study of Rattus norvegicus with 8 samples.

Results

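The genes described here copy DNA and supply its building blocks. The list held 40 rat genes in 8 roles, and 37 of them had a probe set of their own on the array, from 14217 genes with at least 1 such probe set. For each gene the brightest probe set by mean signal over the 8 arrays was used. All 37 passed a filter on dim probe sets and were tested among 10047 genes. Cdc6 and Gins2 had no probe set named for them, and the probe sets of Rrm2 were shared with another gene, so these 3 are not analysed here.

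RNA came from the SB5 sub-clone of FRTL-5, a rat thyroid follicular cell line that depends on thyrotropin (TSH) to grow, carrying a human TSH receptor as a stable transgene. The receptor was either the wild type or L629F, a mutant that signals without hormone and is used as a model of autonomous thyroid nodules. The treatment was sodium iodide at 1 mM, its control was sodium chloride at 1 mM, and all cells, controls included, grew with bovine TSH at 5 mU/ml. Each of the 4 groups had 2 Affymetrix arrays: wild type with chloride, wild type with iodide, L629F with chloride and L629F with iodide. The labels do not give the length of treatment, the promoter of the transgene or the number of clones, so the receptor and the line that carries it cannot be told apart. They do not say whether replicates were separate cultures, so the p-values rest on the spread between these samples alone, and that spread may be technical.

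DNA replication starts when the origin recognition complex and Cdt1 load the Mcm2-7 ring onto DNA. Cdc45 and the GINS complex then join the ring to form the working helicase, primase and the polymerases copy the strands, a sliding clamp holds them on DNA, and flap nuclease and ligase join the pieces of the lagging strand. Ribonucleotide reductase and a few other enzymes make the deoxynucleotides. Many of these genes are transcribed before S phase under E2F factors, and TSH, through cyclic AMP, drives FRTL-5 cells into S phase, whereas excess iodide is known to restrain thyroid cells.

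The 8 arrays had been scaled to a common trimmed mean of 500.2. The median signal of a wild type array was 118 to 127 and that of an L629F array 138 to 147. The 25th percentile was 29.3 to 31.6 in wild type and 40.9 to 43.2 in L629F, so weak signals were higher in L629F. The ratio of the 3′ to the 5′ probe set of GAPDH is a measure of RNA length. It was 1.22 and 1.55 for wild type with chloride and 1.40 and 3.13 for wild type with iodide. For L629F it was 1.54 and 2.17 with chloride and 2.27 and 2.49 with iodide. The same ratio for beta-actin was higher on every array. It was 2.23 and 5.05 for wild type with chloride and 3.66 and 9.15 for wild type with iodide. For L629F it was 5.93 and 7.90 with chloride and 5.95 and 6.48 with iodide. The beta-actin ratio was not used as a covariate. Thyroid identity was borne out by strong signals of the follicular cell genes Tg (10747 to 16582), Pax8 (5506 to 8086), Nkx2-1 (7031 to 9722) and Foxe1 (5014 to 6908), and 10 of 13 listed markers passed the filter. The summed signal of leucocyte markers was 194 to 508 on any array, that of C cell markers 73.3 to 138, with 0 of 4 passing, that of fibroblast markers 271 to 455 and that of endothelial markers 149 to 437.

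With iodide, 5 of the 37 genes rose and none fell when both lines were averaged: Lig1, Rrm1, Mcm7, Mcm6 and Mcm5 (limma, Benjamini-Hochberg adjusted p below 0.05 over all 10047 genes). Among all genes tested, 0.518% (52 genes) rose and 1.08% (109 genes) fell in that comparison. That split between rises and falls depends on the scaling of the arrays: it was 34 and 122 after quantile scaling, 71 and 97 with arrays centred on the kept probe sets, and 99 and 96 centred on all probe sets. The fitted difference, iodide minus chloride on the scale of log2(signal + 35.3), was above 0 for 33 of the 37 genes (89.2%), against 52.2% of all genes tested, with a median of 0.26 against 0.01. An unadjusted p below 0.05 was reached by 18 genes in the positive direction and by 2 in the negative, E2f1 and Uhrf1, against 7.9% and 7.32% of all genes. In RNA from whole cultures, more cells in S phase and more transcript per cell cannot be told apart.

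The 5 calls rested to different degrees on single arrays. Lig1 remained past the threshold in each of the 8 fits that left out 1 array, Rrm1 in 4, Mcm6 in 2, and Mcm7 and Mcm5 in 1 each. Each of these fits leaves 1 array in a group, and the number of calls over all genes changed in them as well. Without 1 array the difference ran from 0.72 to 0.80 for Lig1 and from 0.43 to 0.55 for Rrm1. The range was 0.40 to 0.65 for Mcm6, 0.375 to 0.468 for Mcm7 and 0.42 to 0.66 for Mcm5. The GAPDH ratio ran from 1.22 to 2.17 on the chloride arrays and from 1.40 to 3.13 on the iodide arrays. With this ratio as a covariate, 7 genes rose, namely Lig1 (0.71), Rrm1 (0.54), Mcm6 (0.54), Mcm7 (0.44), Cdt1 (0.59), Orc1 (1.00) and Rfc5 (0.54), whereas Mcm5 had a difference of 0.37 (adjusted p = 0.122, limma). The calls over all genes, in either direction, went from 161 to 259 with this covariate.

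**Figure D1:**
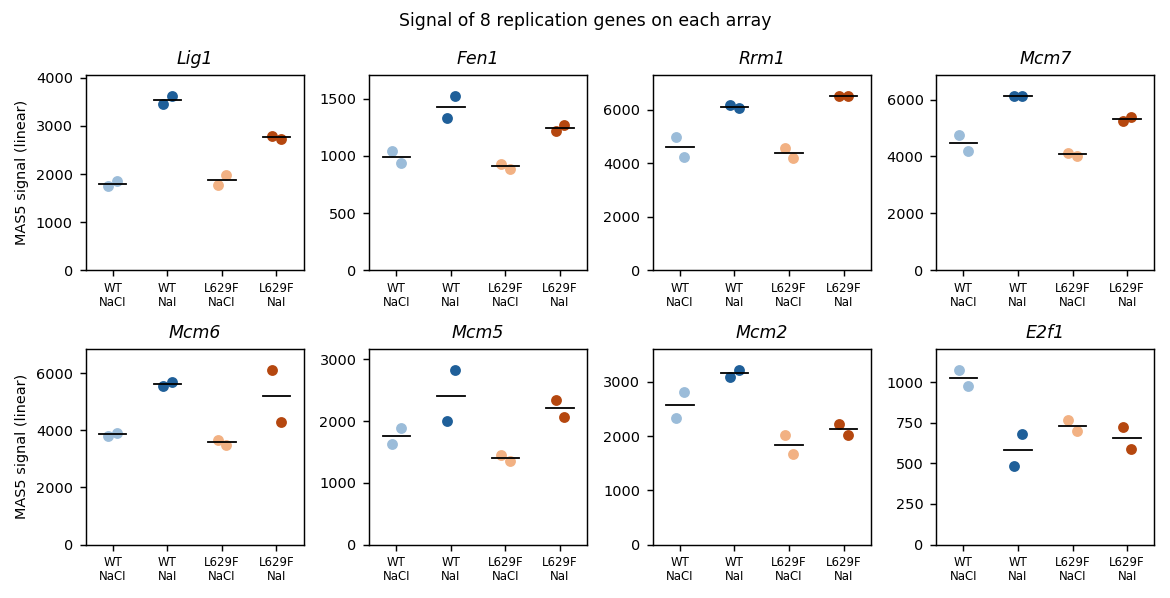
MAS5 signal on each of the 8 arrays (vertical axis, linear, starting at 0) for 8 replication genes, with points for single arrays, 2 in each of the 4 groups of receptor and salt. For Lig1, Fen1, Rrm1, Mcm7, Mcm6 and Mcm5 all 4 iodide arrays lie above all 4 chloride arrays, and for Mcm2 all 4 L629F arrays lie below all 4 wild type arrays.

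As E2F factors are known to act on many replication genes, their promoters were searched for E2F-type motifs. Those of Mcm2 and of the 4 called genes with a match are shown. The windows come from the RefSeq promoter table on the rat build GRCr8, run from 250 bases before to 50 bases after the start of a transcript, and were found for 33 of the 40 genes. The E2F motif was searched on both strands in 4 versions of 8 letters, TTTGGCGC, TTTCCCGC, TTTCGCGC and TTTGCCGC, and matches may overlap each other. The stretches below are read 5′ to 3′ on the strand of the gene, with up to 20 bases on either side of the matches, and capitals mark the matched bases.
Lig1, chr1:83243169-83243199, plus strand: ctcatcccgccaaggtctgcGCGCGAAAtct
Mcm7, chr12:22163203-22163428, minus strand: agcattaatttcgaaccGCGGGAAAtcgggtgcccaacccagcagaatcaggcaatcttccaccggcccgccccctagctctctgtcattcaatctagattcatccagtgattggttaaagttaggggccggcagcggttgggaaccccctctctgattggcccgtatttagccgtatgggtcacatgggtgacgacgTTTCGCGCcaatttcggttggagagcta
Mcm6, chr13:42404460-42404511, minus strand: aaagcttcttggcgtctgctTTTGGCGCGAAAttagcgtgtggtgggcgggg
Mcm5, chr19:13488580-13488832, plus strand: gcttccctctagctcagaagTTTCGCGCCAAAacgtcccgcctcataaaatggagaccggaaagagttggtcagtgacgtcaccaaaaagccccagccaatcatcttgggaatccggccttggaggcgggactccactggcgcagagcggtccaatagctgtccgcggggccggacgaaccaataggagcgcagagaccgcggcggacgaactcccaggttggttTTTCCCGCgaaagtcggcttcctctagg
Mcm2, chr4:122918077-122918128, minus strand: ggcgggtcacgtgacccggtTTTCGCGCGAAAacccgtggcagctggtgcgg

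With the start site as base 0, the matches began at base 19 for Lig1, at -233 and -52 for Mcm7, at -139 and -135 for Mcm6, at -213, -209 and -8 for Mcm5, and at -14 and -10 for Mcm2. In Mcm2, Mcm6 and the upstream part of the Mcm5 window, 2 matches on opposite strands overlapped. Rrm1, the other called gene, had no match in its window. Some window of 14 of the 33 genes (42.4%) held a match, namely Cdt1, Gins1, Lig1, Mcm2, Mcm3, Mcm5, Mcm6, Mcm7, Pola1, Pole, Rfc3, Rpa2, Tyms and Uhrf1. By window the share was 14 of 36 (38.9%), against 598 of 21851 windows of all protein-coding genes (2.74%). The member windows had a median GC content of 59.8%, against 55.0% for all windows. The plain motifs CCAAT and GGGCGG, also searched on both strands, stood in 61.1% and 66.7% of the member windows and in 38.0% and 41.8% of all windows. A match describes letters in the window and does not show that a factor binds there.

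**Figure D2:**
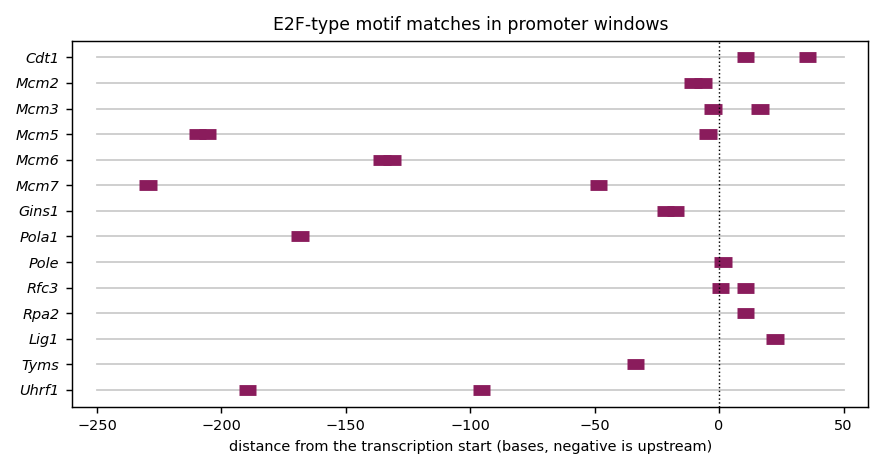
Positions of E2F-type matches (bars, horizontal axis in bases from the transcription start, negative upstream) in the promoter windows of the 14 genes that hold one. The matches of Mcm2 lie at -14 and -10, and the match of Lig1 lies downstream of the start, at base 19.

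Under iodide, the 14 tested genes with a match had a median difference of 0.25, from -0.31 to 0.76, with 4 called. Those with a window but no match numbered 18, had a median of 0.27, from 0.07 to 0.49, and 1 of them was called. Between the receptor lines, averaged over both salts, the median was -0.22 with a match and -0.22 without. There 0 of 14 and 4 of 18 were above 0, and 1 and 0 were called. This is a description of the members, with no test.

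The joining of Okazaki fragments had the largest median of the 8 roles, 0.62 over its 2 genes. Lig1, the DNA ligase of lagging-strand synthesis (probe set 1368204_at), gave signals of 1746 and 1855 on the wild type chloride arrays, 3451 and 3631 on the wild type iodide arrays, 1768 and 1975 for L629F with chloride, and 2797 and 2729 for L629F with iodide. All 4 iodide arrays were above all 4 chloride arrays, and the iodide arrays of the wild type line were higher than those of L629F. The average difference was 0.76 ± 0.10 (SE) or 1.69-fold, with an adjusted p of 0.00128 in limma, and it lay between 0.58 and 0.80 and past the threshold under all 20 alternative settings. The other probe set of Lig1, fitted in a table of single probe sets, differed by 0.40 (adjusted p = 0.187, limma) where the brighter one differed by 0.76 (0.00224).

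Fen1, the nuclease that trims the flaps before ligation (probe set 1367983_at), read 1044 and 937 with chloride and 1329 and 1528 with iodide in the wild type line. In the L629F line it read 929.6 and 887 with chloride and 1216 and 1269 with iodide. The groups of each salt were separate in both lines, and the difference of 0.47 ± 0.11 missed the threshold at an adjusted p of 0.0504 (limma). Over the 20 alternatives it ran from 0.43 to 0.52 with adjusted p from 0.0148 to 0.191, and 8 of them put it past the threshold.

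Of the helicase genes, 8 of 8 tested had a positive difference, with a median of 0.26, and 3 rose. Mcm7 (probe set 1388744_at), a subunit of the Mcm2-7 ring, read 4755 and 4176 with chloride against 6134 and 6142 with iodide in the wild type line, and 4123 and 4019 against 5252 and 5395 in L629F. Its 4 iodide signals were all higher than its 4 chloride signals and lay close together within each group. The difference was 0.42 ± 0.09 (adjusted p = 0.0296, limma).

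Mcm6 (probe set 1371074_a_at), another ring subunit, read 3819 and 3921 with chloride and 5556 and 5708 with iodide in the wild type line. The L629F line gave 3665 and 3503 with chloride and 6124 and 4303 with iodide. No iodide array overlapped the chloride arrays, but the 2 L629F iodide arrays lay far apart. The difference was 0.53 ± 0.11 (adjusted p = 0.0297, limma).

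Mcm5 (probe set 1376055_at) had chloride signals of 1629 and 1888 and iodide signals of 1998 and 2831 in the wild type line. For L629F they were 1445 and 1352 with chloride and 2349 and 2073 with iodide. All iodide signals exceeded all chloride signals, the lowest by a small margin. The difference was 0.54 ± 0.12 (adjusted p = 0.0470, limma), the closest of the 5 to the threshold, and 7 of the 20 alternatives kept it.

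Mcm2 (probe set 1374036_at) read 2341 and 2805 with chloride and 3095 and 3221 with iodide in wild type cells, and 2023 and 1663 against 2229 and 2025 in L629F cells. Within each line the iodide arrays were the higher ones, by a small margin in L629F, and the difference of 0.25 ± 0.11 did not pass (adjusted p = 0.279, limma). Mcm3 (0.26), Cdc45 (0.26), Gins1 (0.11) and Mcm4 (0.06) did not pass either. Mcm4, also a ring subunit, showed overlapping salts in both lines, with wild type signals of 2780.1 and 2714 under chloride and 2506 and 2729 under iodide.

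For origin licensing and firing, 4 of 4 tested genes had positive differences, with a median of 0.35, and none passed (0 of 4 in limma). Orc1 and Cdt1 had an unadjusted p below 0.05, against 7.9% of all genes in that direction. Cdt1, which brings the Mcm ring to origins, read 1854 and 1438 with chloride against 2488 and 2036 with iodide in wild type, and 1507 and 1294 against 1946 and 1785 in L629F. The salts were separate within each line, and the difference was 0.43 ± 0.12 (adjusted p = 0.0932). Orc1, the largest subunit of the origin recognition complex, was dim and uneven, with 356 and 231 against 416 and 254 in wild type and 253 and 128 against 433 and 408 in L629F. Its salts overlapped in wild type and were separate in L629F, and the difference was 0.62 ± 0.22 (adjusted p = 0.188). Orc6 differed by 0.17 and Mcm10, which helps to fire licensed origins, by 0.26.

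Among primase and the replicative polymerases, 6 of 7 genes had positive differences, with a median of 0.20, and none passed in limma. An unadjusted p below 0.05 was reached by 1 of the 7 (Pold1), against 7.9% of all genes in that direction. Pold1, the catalytic subunit of polymerase delta, read 1267 and 1280.0 against 1608 and 1698 in wild type and 1058 and 1083 against 1361 and 1327 in L629F. The salts did not overlap in either line, and the difference was 0.34 ± 0.10 (adjusted p = 0.116). Prim2, the large primase subunit, read 723 and 861 against 1064 and 955 in wild type and 849.5 and 932 against 1252 and 878 in L629F, with overlap in L629F, and differed by 0.28 ± 0.13 (adjusted p = 0.341). Pola2 (0.28), Pold2 (0.20), Pola1 (0.15) and Prim1 (0.12) followed. In wild type cells the signals of Pole, the catalytic subunit of polymerase epsilon, and of Prim1, the small primase subunit, were lower with iodide without overlap: Pole read 623 and 568 against 533 and 537, and Prim1 3498 and 3423 against 2752 and 3199.

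The clamp and its loader had positive differences for 5 of 5 genes, with a median of 0.28 and none past the threshold in limma. An unadjusted p below 0.05 was reached by 3 (Pcna, Rfc4 and Rfc5), against 7.9% of all genes in that direction. Pcna, the sliding clamp, read 10787 and 11199 against 13082 and 14484 in wild type and 10334 and 9251 against 11617 and 11574 in L629F. All iodide arrays were above all chloride arrays, and the difference was 0.28 ± 0.08 (adjusted p = 0.103). Rfc4, a loader subunit, read 2459 and 2928 against 3749 and 3653 in wild type and 2711 and 2557 against 2651 and 2973 in L629F. Its salts were separate in wild type and overlapped in L629F, and it differed by 0.28 ± 0.10 (adjusted p = 0.191). Rfc5 differed by 0.29, Rfc2 by 0.17 and Rfc3 by 0.06.

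Of the subunits of RPA, the single-strand DNA binding complex, Rpa1 read 2589 and 2884 against 3170.3 and 3376 in wild type and 2587 and 2367 against 2882 and 3031 in L629F. Its salts were separate in each line, and the difference was 0.25 ± 0.10 (adjusted p = 0.210, limma). Rpa2 read 1779.8 and 2014 against 1958 and 2375 in wild type and 1302 and 1389.5 against 1500.0 and 1921 in L629F, overlapped in wild type, and differed by 0.26 ± 0.12 (adjusted p = 0.320). Rpa3 differed by -0.10. None of the 3 passed in limma, and Rpa1 and Rpa2 had an unadjusted p below 0.05, against 7.9% of all genes in that direction.

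Of the nucleotide enzymes, 4 of 4 tested had positive differences with a median of 0.11, and Rrm1 rose. Rrm1, the large subunit of ribonucleotide reductase (probe set 1371862_at), read 4983 and 4218 with chloride against 6183 and 6064 with iodide in wild type, and 4555 and 4217 against 6531 and 6537 in L629F. All iodide arrays stood above all chloride arrays, with the highest pair in L629F. The difference was 0.49 ± 0.09 (adjusted p = 0.0148, limma), and 15 of the 20 alternatives kept it past the threshold.

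None of the other 3 nucleotide enzymes passed in limma or had an unadjusted p below 0.05. Dut, which breaks down dUTP, read 2945 and 3030.1 against 3108 and 3375 in wild type and 2598 and 2066 against 2261 and 2945 in L629F. Its salts overlapped in L629F, and the difference was 0.13 ± 0.11 (adjusted p = 0.638, limma). Tyms, thymidylate synthase, differed by 0.08 on average, from -0.16 in wild type and 0.32 in L629F. Tk1, thymidine kinase, differed by 0.07, from -0.05 and 0.19. Both were higher with iodide without overlap in L629F and overlapped in wild type, and neither interaction passed (adjusted p = 0.993 for each, limma). The other probe sets of Tk1 gave 0.27 and 0.06.

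Of the 4 genes listed under the entry into S phase, 2 had positive and 2 negative differences. None passed in limma. An unadjusted p below 0.05 was reached by Ccne1 in the positive direction and by E2f1 and Uhrf1 in the negative. The shares of all genes were 7.9% and 7.32%. E2f1, a transcription factor of the E2F family, read 1076 and 977 with chloride against 483 and 679.7 with iodide in wild type, and 766 and 696 against 721 and 586 in L629F. It was lower without overlap in wild type and overlapped in L629F, and the average difference was -0.48 ± 0.14 (adjusted p = 0.104, limma). Ccne1, the E1 cyclin of the start of S phase, read 1264 and 1495 against 1480.0 and 1901 in wild type and 998 and 1095 against 1327 and 1334 in L629F. Its salts were separate in L629F and overlapped in wild type, with a difference of 0.31 ± 0.12 (adjusted p = 0.219). Uhrf1, which carries DNA methylation through replication, differed by -0.31 ± 0.13 (adjusted p = 0.293), and Ccne2 by 0.02.

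**Figure D3:**
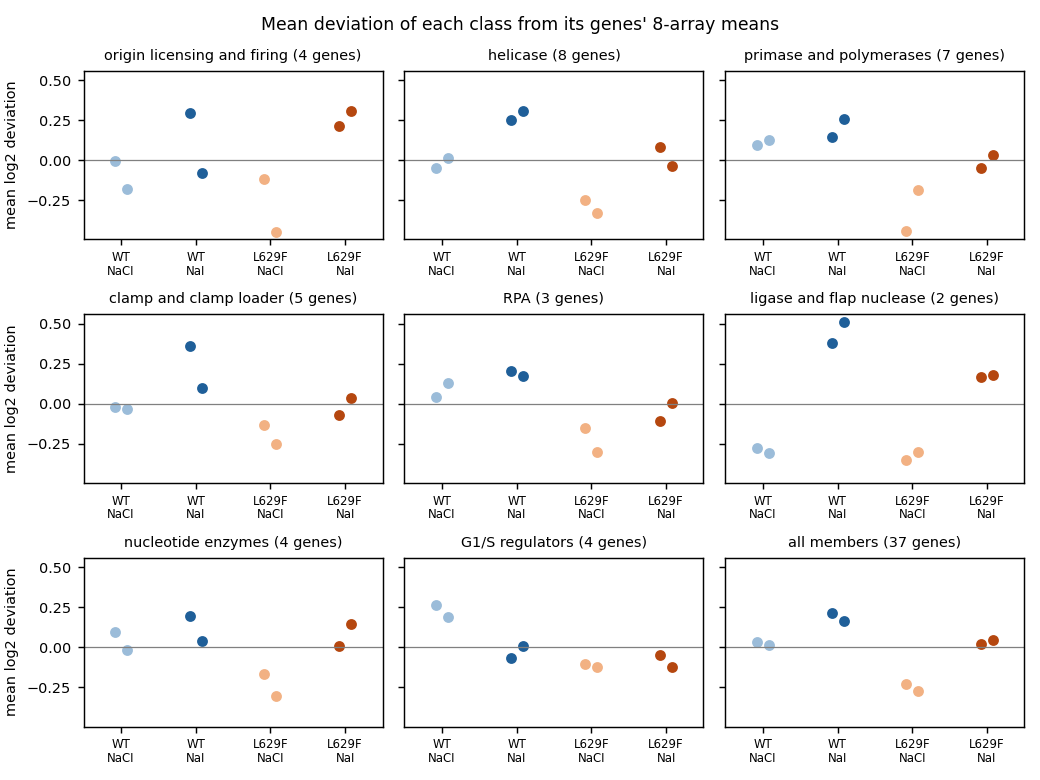
Mean deviation of each role's genes from their own 8-array means (vertical axis, log2(signal + pseudocount)), with 1 point per array and 2 per group of receptor and salt. Over all 37 genes the mean deviations are 0.03 and 0.02 for wild type with chloride, 0.21 and 0.17 for wild type with iodide, -0.23 and -0.27 for L629F with chloride, and 0.02 and 0.05 for L629F with iodide.

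In wild type receptor cells alone, 1 of the 37 genes rose with iodide, Lig1, against 0.0796% of all genes tested (8 genes). Its difference was 0.96 ± 0.14 (adjusted p = 0.00640, limma), and it did not pass without replicate 1 (0.92, adjusted p = 0.156) or without replicate 2 (1.00, adjusted p = 0.101) of the chloride arrays. The median over the 37 genes was 0.18, against 0.02 over all genes, and 12 genes had an unadjusted p below 0.05 in the positive direction, against 6.25% of all genes. In the negative direction 2 did, E2f1 and Uhrf1, against 6.31% of all genes, a share near that background. E2f1 had the lowest difference, -0.80 ± 0.20 (adjusted p = 0.112).

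In L629F cells, none of the 37 genes passed in limma, against 0.0896% of all genes (9 genes), and 11 had an unadjusted p below 0.05, all of them positive, against 3.73% of all genes in that direction. The median was 0.25, against 0.01. Rrm1 differed by 0.57 ± 0.13 (adjusted p = 0.154), Lig1 by 0.56 ± 0.14 (0.198), Mcm5 by 0.65 ± 0.18 (0.278) and Orc1, the widest, by 1.07 ± 0.31 (0.328).

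The 2 lines share no arrays, so their signs can be set side by side. The difference with iodide was positive in both lines for 28 of 37 genes (75.7%), against 32.5% of all genes, and negative in both for 3 (8.11%), against 28.0%. For 14 genes (37.8%) both iodide arrays lay above both chloride arrays in each line, against 8.17% of all genes: Cdt1, Mcm2, Mcm3, Mcm5, Mcm6, Mcm7, Cdc45, Pold1, Pcna, Rfc5, Rpa1, Lig1, Fen1 and Rrm1. No gene of the 37 lay below in both lines, against 6.06% of all genes. In wild type alone 18 genes were higher without overlap, against 23.7% of all genes, and in L629F alone 24, against 20.2%.

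Whether the lines responded differently was tested by the interaction of receptor and salt. None of the 37 genes, and none of all genes tested, passed in limma. An unadjusted p below 0.05 was reached by 3 of the 37, E2f1, Prim1 and Pold2, against 4.16% of all genes. In E2f1 the L629F minus wild type response was 0.64 ± 0.28 (adjusted p = 0.993), in Prim1 0.69 and in Pold2 0.55. Lig1 differed in the other direction, by -0.41 ± 0.19 (unadjusted p = 0.0536 from limma's moderated test across all genes). The median standard error of an interaction was 0.29, against 0.14 for the averages.

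**Figure D4:**
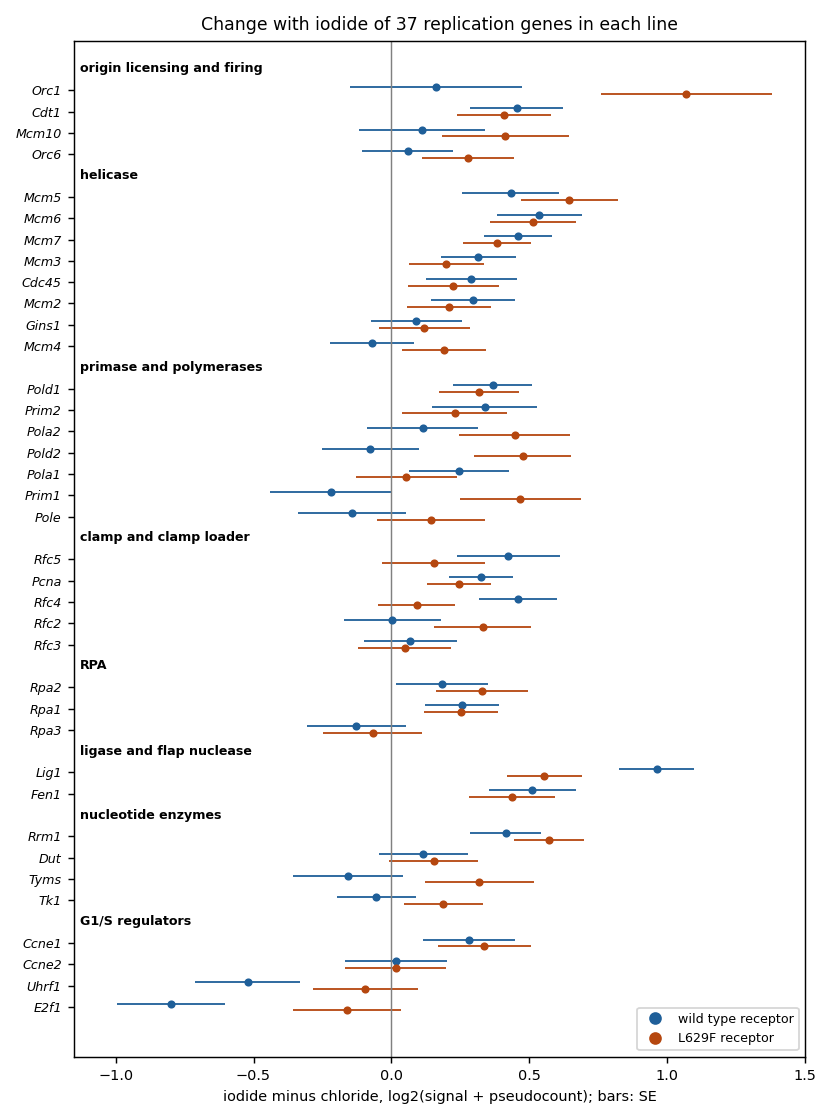
Difference with iodide, iodide minus chloride on the scale of log2(signal + pseudocount), for the 37 genes by role, with bars of 1 standard error from the fit and 1 point per line (wild type and L629F, 2 arrays a group). Lig1 stands at 0.96 in wild type and 0.56 in L629F, Rrm1 at 0.41 and 0.57, and E2f1 at -0.80 in wild type.

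Between the receptor lines, averaged over both salts, 1 of the 37 genes was lower in L629F, Mcm2, and none was higher, against 1.09% of all genes lower (110 genes) and 208 genes higher. The difference, L629F minus wild type, was below 0 for 33 of the 37, with a median of -0.22 against -0.00 over all genes. An unadjusted p below 0.05 in that direction was reached by 15 genes, against 9.47% of all genes. With the arrays centred on all probe sets, where weak signals of L629F weigh most, the median of all genes moved to -0.17 and that of the 37 to -0.39; such centring shifts every gene alike. Quantile scaling, which does not, gave -0.01 and -0.19. With the centring on all probe sets the calls came to 22 of 37 lower, against 12.2% of all genes, and to 146 higher and 1230 lower over all genes. The part played by the higher weak signals of the L629F arrays was not tested beyond these scalings.

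All 4 L629F signals of Mcm2, given above, were below all 4 wild type signals. The difference was -0.52 ± 0.11, a ratio of 0.698 (adjusted p = 0.0222, limma). It passed when replicate 1 of wild type with iodide or replicate 1 of L629F with chloride was left out, and missed the threshold when any of the other 6 arrays was left out, with adjusted p up to 0.126 and values from -0.58 to -0.45.

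The primase and polymerase genes had the lowest median of the 8 roles between the lines, -0.46, with 6 of 7 below 0. None passed in limma. An unadjusted p below 0.05 was reached by 5, all lower (Pola1, Pola2, Prim1, Pold1 and Pold2), against 9.47% of all genes lower. Pola1, the catalytic subunit of polymerase alpha, read 849 and 698 in wild type against 528 and 656 in L629F under chloride, and 877 and 964 against 623 and 603 under iodide. Pola2, its second subunit, read 828 and 953 against 436 and 675 under chloride and 935 and 995 against 723 and 787 under iodide. Both were lower in L629F without overlap under each salt, with differences of -0.46 ± 0.13 (adjusted p = 0.0691, limma) and -0.51 ± 0.14 (0.0714).

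Pold2, the second subunit of polymerase delta, read 1472 and 1672 in wild type against 959.7 and 888 in L629F under chloride and 1286 and 1715 against 1188 and 1417 under iodide. Prim1 read 3498 and 3423 against 1426 and 2590.4 under chloride and 2752 and 3199 against 2395 and 2983 under iodide. For both genes the lines were separate under chloride and overlapped under iodide. The averages were -0.47 ± 0.12 (adjusted p = 0.0602) and -0.49 ± 0.16 (0.106). Rpa2, with the signals given above, was lower in L629F without overlap under each salt, by -0.41 ± 0.12 (adjusted p = 0.0757).

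By role, the median difference between lines was -0.22 for the helicase (8 of 8 below 0), -0.21 for the clamp and its loader (5 of 5), -0.28 for RPA (3 of 3), -0.15 for ligase and flap nuclease, -0.15 for the nucleotide enzymes, -0.19 for the S phase entry genes and -0.04 for licensing. Mcm10 (0.25), Prim2 (0.11), Orc6 (0.04) and Rrm1 (0.01) were the 4 genes above 0, and none of them passed. Under chloride none of the 37 genes passed in limma, against 0.488% of all genes (49 genes), and the median of the 37 was -0.26. An unadjusted p below 0.05 was reached by 12, all lower, against 6.44% of all genes lower. Under iodide none passed either, against 0.488% of all genes (49 genes), and the median of the 37 was -0.20. There 4 had an unadjusted p below 0.05, all lower, against 5.6% of all genes lower, so this count is not far from the background.

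The lines under chloride and under iodide share no arrays. The shares here too describe a list whose genes can vary together, with no test. The difference was below 0 under both salts for 28 of 37 genes (75.7%), against 32.8% of all genes. For 15 genes (40.5%) both L629F arrays lay below both wild type arrays under each salt, against 8.42% of all genes, and for 0 of 37 they lay above under each salt, against 9.37%. The 15 were Mcm2, Mcm3, Mcm7, Cdc45, Gins1, Pola1, Pola2, Pold1, Pcna, Rfc3, Rpa1, Rpa2, Fen1, Dut and Ccne1. Other kept probe sets of Cdc45 and Dut did not repeat the average difference between the lines: -0.03 and 0.18 for Cdc45, 0.03 for Dut. The number of such genes was 10 after quantile scaling and 25 with arrays centred on all probe sets. The share of all genes was then 7.77% and 24.7%. The GAPDH ratio ran from 1.22 to 3.13 on the wild type and from 1.54 to 2.49 on the L629F arrays, and with it as a covariate 8 genes were lower, Mcm2 (-0.52) among them, while the calls over all genes went from 318 to 716 in either direction.

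**Figure D5:**
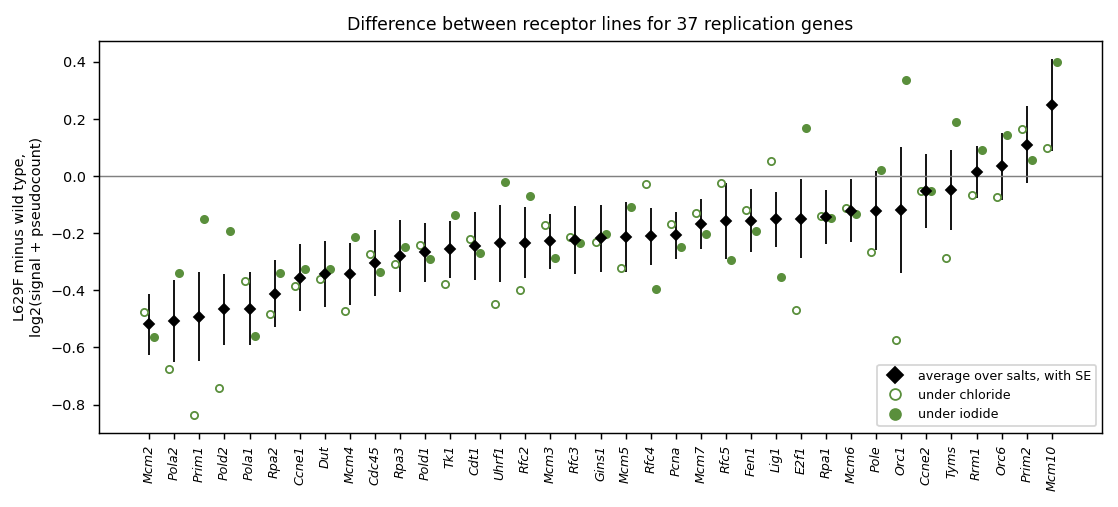
Difference between the lines, L629F minus wild type on the scale of log2(signal + pseudocount), for the 37 genes in order of the average over both salts (diamonds, with 1 standard error), with the values under chloride (open circles) and under iodide (filled circles). Of the averages, 33 lie below 0, from Mcm2 at -0.52 up, and 4 lie above.

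Other genes of the same processes were taken from 4 further lists. In a list of 39 tested replication factors outside the 37, none passed in limma with iodide, and the median was 0.11 with 28 positive. An unadjusted p below 0.05 was reached by 1 of the 39, Rnaseh2b (0.34), against 7.9% of all genes in that direction. In 26 tested enzymes of nucleotide and folate metabolism, none passed and 9 had an unadjusted p below 0.05, all positive, against 7.9% of all genes, with a median of 0.17 and 19 positive. Among these Mthfd1, a folate enzyme, differed by 0.32 ± 0.09 (adjusted p = 0.0965), Gmps, which makes GMP, by 0.36 ± 0.10 (0.0965) and Cad, which starts pyrimidine synthesis, by 0.44 ± 0.13 (0.103).

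In 23 tested genes that control the entry into S phase, none passed with iodide, and the median was 0.02. An unadjusted p below 0.05 was reached by 1 of the 23, Myc (0.38), against 7.9% of all genes in that direction. Of 8 markers of later cell cycle phases, none passed and the median was 0.12. An unadjusted p below 0.05 was reached by 2 of the 8, against that same 7.9%. Those were Mki67, the Ki-67 antigen (0.28 ± 0.08, adjusted p = 0.110, limma), and Plk1, a mitotic kinase (0.30).

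The medians between the lines were -0.06 for replication factors, -0.11 for nucleotide enzymes, -0.04 for S phase entry and -0.17 for later phases. In these 4 lists 3 genes were higher in L629F and 2 were lower. Of all 10047 genes, 208 were higher and 110 (1.09%) were lower. The higher ones were Slbp, which binds histone messages (0.64 ± 0.12, adjusted p = 0.0139, limma), Shmt2, the mitochondrial serine hydroxymethyltransferase (0.43 ± 0.09, 0.0262), and Tfdp2, a partner of E2F factors (0.72 ± 0.15, 0.0233). The lower ones were Dscc1, a part of an alternative clamp loader (-0.53 ± 0.13, 0.0451), and Myc (-0.49 ± 0.12, 0.0482).

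Of the 37 genes, 8 had more than 1 probe set, and several of these did not repeat the difference of the brightest. Under iodide, the other probe sets of Orc6 gave -0.01 and -0.02 against 0.17, those of Mcm10 -0.09 against 0.26, and those of Dut -0.07 against 0.13. Those of Cdc45 gave 0.09, 0.14 and, for a dim one, 0.11 against 0.26, that of Rfc5 0.22 against 0.29, and that of Ccne2 -0.10 against 0.02. Of the 5 called genes only Lig1 had more than 1 probe set, and the mean of its 2 gave 0.58 (adjusted p = 0.0186, limma). Between the lines, the other kept probe sets of Cdc45 gave -0.03 and 0.18 against -0.30, and that of Dut 0.03 against -0.34. Those of Tk1 gave -0.46 and 0.14 against -0.26, and those of Orc6 -0.09 and -0.10 against 0.04. That of Mcm10 gave -0.04 against 0.25, that of Rfc5 -0.07 against -0.16 and that of Lig1 -0.14 against -0.15. That of Ccne2 gave -0.13 against -0.05.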

How the data were processed

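RNA was biotin-labelled and hybridised to Affymetrix rat arrays, 2 per group. The deposited values are MAS5 signal intensities on a linear scale, per the submitters' processing notes, and the authors' values share a 2% trimmed mean of 500.2, as found from the deposited columns. Counting depth has no equivalent here, and the number of arrays limits the precision. Replicate arrays correlated at 0.971 to 0.981.

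Of 31099 probe sets, 57 controls were left out, and a filter removed the dimmest 40%, whose mean signal was under 69.9 (averaged on the log2 scale). GEO's platform annotation gave 20826 probe sets 1 symbol, covering 14217 genes, and 436 several. Of the 18631 kept, 4704 had no single symbol. The brightest probe set by mean signal stood for each of 10047 genes. Signals were analysed as log2(signal + 35.3), where 35.3 is the 25th percentile over every deposited signal. A cell-means model over the 4 groups was fitted with limma 3.58.1 (R 4.3.3, lmFit and eBayes with an intensity trend, 4 residual degrees of freedom) and p-values were adjusted by Benjamini-Hochberg over all genes at 0.05. All adjusted p-values come from this kind of limma fit. Standard errors are the moderated ones of that fit. The procedure was tested on simulated data. Figures were drawn with matplotlib 3.10.9 (Python 3.11.15).

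The member genes, the 4 further gene lists and the marker lists of 5 cell types were chosen with earlier results of these data known. Signals are given in full for the called genes, for Fen1 and for the genes with the smallest p of each role, and other genes by their differences. Alternatives changed the pseudocount, filter, scaling, choice of probe set, intensity trend, groups fitted, replicate block, GAPDH covariate and each array in turn. Choosing probe sets by mean log2 signal was added after seeing the data. Protein sequences were not used here.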

Additional observations from a re-analysis of the deposited data

How the results depend on the processing

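The median of the 37 genes kept its sign with iodide, on average and in each line, and between the lines, on average and under each salt, under all alternatives. The median of the interaction, 0.04, lay between -0.04 and 0.09. Without 1 array, 7 of the 37 genes changed the sign of their average difference with iodide in at least 1 fit (Mcm4, Prim1, Pole, Rfc3, Rpa3, Tyms and Ccne2) and 7 that between the lines, none of them called. No called gene reversed. The number of genes past the threshold with iodide was 5 in the reported fit. It was 2 with no filter on dim probe sets, 1 (Lig1) with no intensity trend, and 1 to 6 without 1 array. In wild type it was 1, and 0 when probe sets of a gene were averaged, 0 with no intensity trend, 3 with the GAPDH covariate (Rfc5 and Lig1 higher, E2f1 lower), and 0 to 1 without 1 array. In L629F it was 0, and 1 with the GAPDH covariate (Orc1), where calls over all genes went from 9 to 30. Between the lines it was 1, and 0 with no intensity trend, 22 with arrays centred on all probe sets, 8 with the GAPDH covariate, and 0 to 2 without 1 array. Between the lines under chloride it was 0, and 1 with arrays centred on all probe sets or with only the groups compared (Pold2 each time), and 2 with the GAPDH covariate (Prim1 and Pold2). Under iodide it was 0, and 1 with arrays centred on all probe sets (Mcm2), where calls over all genes went from 49 to 57. Calls over all genes moved in the other settings too. With iodide, 161 became 92 with no filter and 18 with no intensity trend. In wild type, 46 became 38 with probe sets averaged, 0 with no intensity trend and 195 with the GAPDH covariate. Between the lines, 318 became 171 with no intensity trend. Under chloride, 49 became 89 centred on all probe sets, 81 with only the groups compared and 262 with the GAPDH covariate. Apart from the scalings, which change the zero point, the causes were not tested. The labels do not say what the replicate number stands for. Deviations between replicates correlated at 0.0430 to 0.226 across pairs of groups, all of them positive. Whether same-numbered arrays share a batch or culture was not tested. With the replicate block, calls over all genes went from 161 to 521 with iodide and from 318 to 804 between the lines. They went from 46 to 232 in wild type, from 9 to 60 in L629F and from 49 to 247 under chloride. Of the 37, 11 genes passed with iodide (10 higher, and E2f1 lower), 4 in wild type (Mcm6, Mcm7 and Lig1 higher, E2f1 lower), 1 in L629F (Rrm1), 8 between the lines, all lower, and 3 between the lines under chloride (Pola2, Prim1 and Pold2). With 2 arrays a group, differences within a line had a median standard error of 0.20.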
